A study of Mus musculus with 2 samples.

Results

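The 10 genes described here encode the carriers that move bile acids and other organic anions into and out of hepatocytes. They were chosen by symbol, as 4 uptake carriers of the sinusoidal membrane (Slc10a1, Slco1a1, Slco1a4 and Slco1b2), 3 export pumps of the canalicular membrane (Abcb11, Abcb4 and Abcc2) and 3 exporters of the basolateral membrane (Abcc3, Abcc4 and Slc51b), out of the 32285 genes in the count matrices. All 10 were present in both libraries. The values came from 2 droplet single-cell RNA libraries of mouse liver cells collected by perfusion, with 3′ tags and unique molecular identifiers (UMIs), from a study of how hepatocytes change identity in injury and in tumour formation.

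The library called DDC and cMet here pooled cells of 2 WT mice at day 0 and of 2 Sox9-CreERT2:Rosa26-mTmG mice that had received the DDC diet together with cMet, introduced by HTVi, for 5 months. In those mice the Sox9 promoter drives the inducible recombinase and the mTmG allele is its reporter. The DDC library pooled cells of 2 WT mice on normal diet at day 0 and of 2 Sox9-EGFP mice fed the DDC diet for 2 weeks, in which the Sox9 promoter drives EGFP. All mice were labelled C57BL/6J;129S6/SvEvTac, and their age and sex were not given in the sources used here. DDC is a porphyrinogenic compound that injures bile ducts and provokes a ductular response, and cMet is a receptor tyrosine kinase used as an oncogene in mouse liver. No column assigned cells to mice, so each library is a single sample, no p-value is given, and library, treatment, time and mouse cannot be told apart. Cells of a library are not replicates, and the exact 95% intervals given here cover counting error only.

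Bile acids return to the liver in portal blood and enter hepatocytes through the sodium-dependent carrier Slc10a1 and through the sodium-independent Slco family. They are pumped into bile across the canalicular membrane, where Abcb11 exports bile salts, Abcb4 moves phosphatidylcholine to the outer leaflet and Abcc2 exports conjugated bilirubin and glutathione conjugates. Abcc3, Abcc4 and the Slc51 heterodimer, of which Slc51b is a subunit, move bile acids back to blood and are known as a relief route in cholestasis. In mouse liver these genes are under the control of the bile acid receptor FXR, of hepatocyte transcription factors, of oxidative stress sensors and, for Slco1a1, of the male pattern of growth hormone.

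A barcode was kept if it had 500 genes or more, 2000 UMIs or more and no more than 30% of its UMIs from mitochondrial genes, which left 8099 of 18316 barcodes in the DDC and cMet library and 2903 of 8694 in the DDC library, with median depths of 13215 and 29588 UMIs. Levels are UMIs per 10,000, summed over the cells of a group. Alb-high cells had at least 100 Alb UMIs per 10,000 and under 10 per 10,000 from a list of nonparenchymal markers, and numbered 4738 in the DDC and cMet library and 1653 in the DDC library. All 8 markers of the hepatocyte list, Alb among them, were detected in them. All 8 were also detected in the macrophage-marker cells defined below, so detection does not tell these groups apart. Tumour cells and hepatocytes were not separated by this rule. Cells with under 100 Alb UMIs and at least 10 macrophage-marker UMIs per 10,000, 1570 and 487 in the same order of libraries, served as a measure of free RNA and of carriers that macrophages express themselves. The libraries shared 50 barcodes, of which 4 were kept in both. tdTomato, the undeleted form of the mTmG reporter, had 2 UMIs in all, so treated cells could not be marked by it in the DDC and cMet library.

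Promoters of 9 of the 10 genes, as 300-base windows that span an annotated start, were matched in RefSeq (GRCm38.p6). Abcc3 had no entry there, and Slc10a1 and Abcc4 had more than 1. Slco1a1, Slco1a4 and Slco1b2 lie on chromosome 6. An inverted repeat of GGNCA and TGACC with 1 base of any kind between them, read on both strands as the binding motif of the FXR heterodimer, occurred in 78 of 32851 promoters (0.237%) and in those of Abcb11 and Slco1b2. The antioxidant response core TGACNNNGC, read on both strands, occurred in 12.4% of promoters, among them Abcc2 and both Abcc4 entries. The HNF4 motif CAAAGTCCA and the HNF1 motif of GTTAAT and ATT with 1 base between them, on either strand, occurred in 0.475% and 0.399% of promoters, and neither in any of the 11 entries of these genes. The first pair below shows the inverted repeat in capitals, 62 bases before the Abcb11 start on chr2:69342567-69342866, minus strand, and 87 bases before the Slco1b2 start on chr6:141629268-141629567, plus strand. The next pair shows the antioxidant core in capitals in Abcc4, on chr14:118706170-118706469, minus strand, where it reads on the opposite strand, and in Abcc2, on chr19:43782058-43782357, plus strand. The last is the promoter of Slc10a1, the sodium-dependent uptake carrier, on chr12:80968656-80968955, minus strand, which held none of these motifs. A match describes letters in this window and does not show that a factor binds there.
Abcb11: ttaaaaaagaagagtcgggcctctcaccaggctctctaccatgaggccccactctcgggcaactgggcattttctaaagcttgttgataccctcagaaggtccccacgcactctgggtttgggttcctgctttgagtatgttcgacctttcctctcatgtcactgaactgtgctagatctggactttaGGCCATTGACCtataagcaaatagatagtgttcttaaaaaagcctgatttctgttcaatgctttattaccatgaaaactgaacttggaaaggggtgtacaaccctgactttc
Slco1b2: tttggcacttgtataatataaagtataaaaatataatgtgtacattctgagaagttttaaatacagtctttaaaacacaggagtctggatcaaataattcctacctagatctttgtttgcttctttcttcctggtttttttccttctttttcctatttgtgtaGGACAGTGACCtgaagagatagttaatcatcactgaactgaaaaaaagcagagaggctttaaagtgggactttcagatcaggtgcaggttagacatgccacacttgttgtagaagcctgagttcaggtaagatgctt
Abcc4: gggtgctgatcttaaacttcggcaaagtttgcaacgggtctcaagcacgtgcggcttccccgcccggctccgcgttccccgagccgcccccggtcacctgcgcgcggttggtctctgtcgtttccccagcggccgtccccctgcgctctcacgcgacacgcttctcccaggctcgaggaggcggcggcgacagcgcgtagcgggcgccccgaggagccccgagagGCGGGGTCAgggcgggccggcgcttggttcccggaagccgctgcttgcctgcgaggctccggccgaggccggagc
Abcc2: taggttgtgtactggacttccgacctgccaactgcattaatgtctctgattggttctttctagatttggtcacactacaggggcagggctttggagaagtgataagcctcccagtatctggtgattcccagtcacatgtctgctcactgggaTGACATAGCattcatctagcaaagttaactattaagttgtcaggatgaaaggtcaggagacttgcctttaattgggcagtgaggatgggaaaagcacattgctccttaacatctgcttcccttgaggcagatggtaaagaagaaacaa
Slc10a1: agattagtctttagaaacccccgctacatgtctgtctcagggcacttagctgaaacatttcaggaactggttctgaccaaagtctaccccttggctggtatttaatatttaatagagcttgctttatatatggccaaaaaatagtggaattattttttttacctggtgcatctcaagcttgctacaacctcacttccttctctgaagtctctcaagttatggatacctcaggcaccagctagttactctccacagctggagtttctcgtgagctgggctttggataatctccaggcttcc

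In Alb-high cells the 4 uptake carriers were all higher in the DDC and cMet library, whereas the canalicular and basolateral carriers were level or lower. Summed over each class, uptake carriers had 10.1 UMIs per 10,000 in the DDC and cMet library and 4.07 in the DDC library, a 2.48-fold difference. The canalicular sum was 4.72 in the DDC and cMet library and 5.27 in the DDC library. The basolateral sum was 1.22 in the DDC and cMet library and 1.55 in the DDC library. The uptake class was thus the one with the higher sum in the DDC and cMet library.

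Slc10a1, the sodium taurocholate cotransporter, had 3.20 UMIs per 10,000 in the DDC and cMet library and 0.606 in the DDC library, 5.28-fold higher (95% interval 5.11 to 5.47). Slco1a1, an organic anion carrier with male-biased expression in mouse liver, had 0.872 in the DDC and cMet library and 0.0853 in the DDC library, 10.2-fold higher (9.35 to 11.2). Slco1b2, the main liver-specific Slco carrier in the mouse, had 5.45 in the DDC and cMet library and 3.06 in the DDC library, 1.78-fold higher. Slco1a4, a carrier of bile acids and cardiac glycosides, had 0.557 and 0.317 in the same order, 1.76-fold higher. The size of the difference in these sums thus ran from under 2-fold to over 10-fold within 1 class. The largest depended on the processing: the Slco1a1 log2 ratio of 3.35 was 2.46 with cells weighted alike and 2.66 with cells thinned to 2000 UMIs.

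Among canalicular carriers, Abcb11, the bile salt export pump, had 1.21 UMIs per 10,000 in each library, with an interval of the log2 ratio from -0.04 to 0.04. Abcc2 had 2.42 in the DDC and cMet library and 2.45 in the DDC library (log2 ratio -0.02). Abcb4 had 1.09 in the DDC and cMet library and 1.61 in the DDC library (log2 ratio -0.56). Only Abcb4 of these 3 therefore had an interval that left out 0, from -0.60 to -0.52. In the last 500 bases of its transcripts, 4.65% of 60-base stretches were shared with Abcb1a or Abcb1b, so UMIs from those stretches cannot be assigned to it alone.

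Among basolateral carriers, Abcc4, an exporter of bile acids with glutathione and of cyclic nucleotides, had 0.0417 UMIs per 10,000 in the DDC and cMet library and 0.112 in the DDC library, 2.68-fold lower. Abcc3, an exporter of glucuronides and bile acids, had 0.991 in the DDC and cMet library and 1.26 in the DDC library (log2 ratio -0.35). Slc51b had 0.186 in the DDC and cMet library and 0.173 in the DDC library, with an interval of the log2 ratio that held 0. Abcc3 and Abcc4 were both higher in macrophage-marker cells than in Alb-high cells. Abcc3 had 2.74 per 10,000 in macrophage-marker cells and 0.991 in Alb-high cells of the DDC and cMet library, and 2.61 and 1.26 in those of the DDC library. Abcc4 had 0.183 in macrophage-marker cells and 0.0417 in Alb-high cells of the DDC and cMet library, and 0.226 and 0.112 in those of the DDC library. The other 8 carriers were at least 3.63-fold lower in macrophage-marker cells in both libraries. Of all genes, 19.4% were at least 2-fold lower and 38% higher in macrophage-marker cells of the DDC and cMet library, and 17.8% and 28.6% in those of the DDC library. The 9 macrophage markers, all detected in every one of these groups, summed to 227 per 10,000 in macrophage-marker cells and 1.41 in Alb-high cells of the DDC and cMet library, and to 240 and 0.876 in those of the DDC library. These markers chose the macrophage-marker cells, and some are in the nonparenchymal list that bounds Alb-high cells, so that contrast was set by the choice of cells. The part of macrophage RNA in the Abcc3 and Abcc4 levels of Alb-high cells was not tested.

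**Figure D1:**
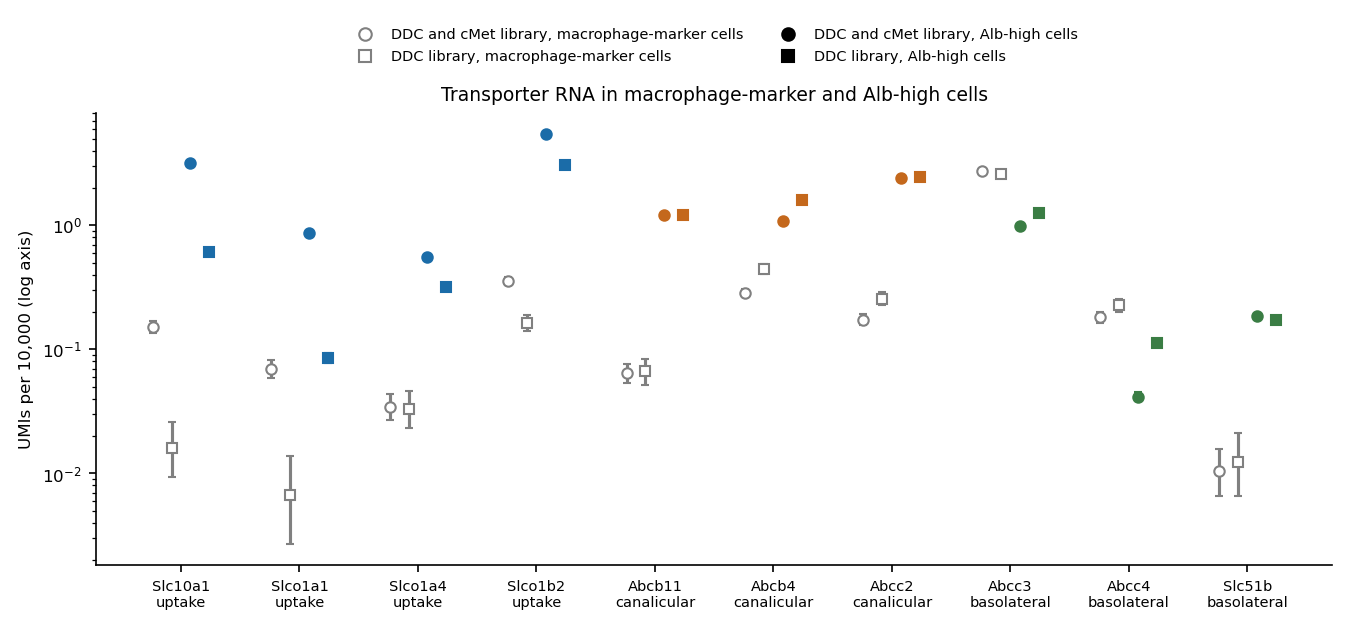
UMIs per 10,000 of each carrier (log axis) in macrophage-marker cells (open grey) and Alb-high cells (filled) of the DDC and cMet library (circles) and the DDC library (squares), with exact 95% counting intervals. Uptake carriers lie higher in the DDC and cMet library, and Abcc3 and Abcc4 are the carriers that lie higher in macrophage-marker cells than in Alb-high cells.

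At a 2-fold limit, 2 of the 10 carriers were higher (Slc10a1 and Slco1a1), against 5.57% of the 13243 genes with at least 50 UMIs, and 1 was lower (Abcc4), against 11.9%. The median log2 ratio was 0.05 over the carriers and -0.27 over all these genes. The difference in uptake carriers was smaller among Alb-high cells without Plet1, a gene for a surface protein of epithelial progenitors: in that comparison Slc10a1 was 2.73-fold higher and Slco1b2 1.07-fold higher. Abcb11, with 1.35 UMIs per 10,000 in Plet1-negative cells of the DDC and cMet library and 2.02 in those of the DDC library, was lower there (log2 ratio -0.58), and Abcc4 was 3.50-fold lower. There, 2 carriers were at least 2-fold higher, against 5% of genes, and 1 lower, against 7.79%. Plet1-positive cells made up a different share of each library, 285 of 4738 Alb-high cells in the DDC and cMet library and 740 of 1653 in the DDC library. Of 16 genes of bile acid synthesis and conjugation, 7 were at least 2-fold higher in the DDC and cMet library and 0 lower, among them Cyp8b1, the sterol 12-alpha-hydroxylase (log2 ratio 2.69), and Cyp7b1 (1.74).

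Over EGFP bins of the DDC library, the levels of Slc10a1, Slco1b2, Abcb11 and Abcc2 were lower in each successive bin, with counting intervals apart. Those of Abcb4 and Abcc3 were level until the highest bin. Cells that make EGFP can come only from the Sox9-EGFP mice on diet. Free EGFP RNA was present as well: EGFP had 0.427, 2.03 and 10.2 UMIs per 10,000 in the low, mid and high bins and 0.437 in macrophage-marker cells of this library. The low bin, at about that background and holding only cells above 10000 UMIs, may therefore include cells that do not make EGFP. The bins held cells without nonparenchymal markers at whatever Alb level, 1181 cells with 0 EGFP UMIs, 476 under 1 per 10,000 (low), 274 from 1 to under 4 (mid) and 144 at 4 or more (high). The bin at 0 mixes cells of WT mice with EGFP-negative cells of the diet-fed mice, and it was shallower (median 28519 UMIs) than the high bin (50238).

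Slc10a1 had 0.661, 0.423, 0.266 and 0.0811 UMIs per 10,000 over the bins 0, low, mid and high, so the high bin was 8.15-fold lower than the bin at 0. Slco1b2 had 3.53, 2.14, 1.46 and 0.428 over the same bins, an 8.25-fold difference between the high bin and the bin at 0. The counting intervals of all 4 bins were apart for both genes. Slco1a4 had 0.327, 0.258, 0.222 and 0.105, 3.10-fold lower in the high bin, and the intervals of its low and mid bins overlapped. Slco1a1 had 0.124, 0.0292, 0.0107 and 0.00854, and the high bin held 6 of its UMIs. Its mid and high bins were close to the 0.00666 of macrophage-marker cells in this library, so an order between them was not detectable at this depth.

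Abcb11 had 1.32, 0.930, 0.595 and 0.195 over the bins, 6.76-fold lower in the high bin than in the bin at 0. Abcc2 had 2.64, 2.26, 1.85 and 1.39, 1.90-fold lower. Abcb4 had 1.55, 1.60, 1.48 and 0.993, 1.56-fold lower. The 3 canalicular pumps thus differed from each other in the size of the difference, and the intervals of the Abcb11 ratio (5.70 to 8.07) and of the Abcb4 and Abcc2 ratios did not meet.

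Abcc3 had 1.30, 1.28, 1.30 and 0.955 UMIs per 10,000 over the bins, 1.36-fold lower in the high bin. Slc51b had 0.166, 0.155, 0.115 and 0.0512, 3.25-fold lower. Abcc4 had 0.155, 0.0746, 0.0691 and 0.0512, so most of its difference lay between the bin at 0 and the low bin. Compared with the low bin, the high bin was 1.46-fold lower for Abcc4 and 5.22-fold lower for Slc10a1.

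**Figure D2:**
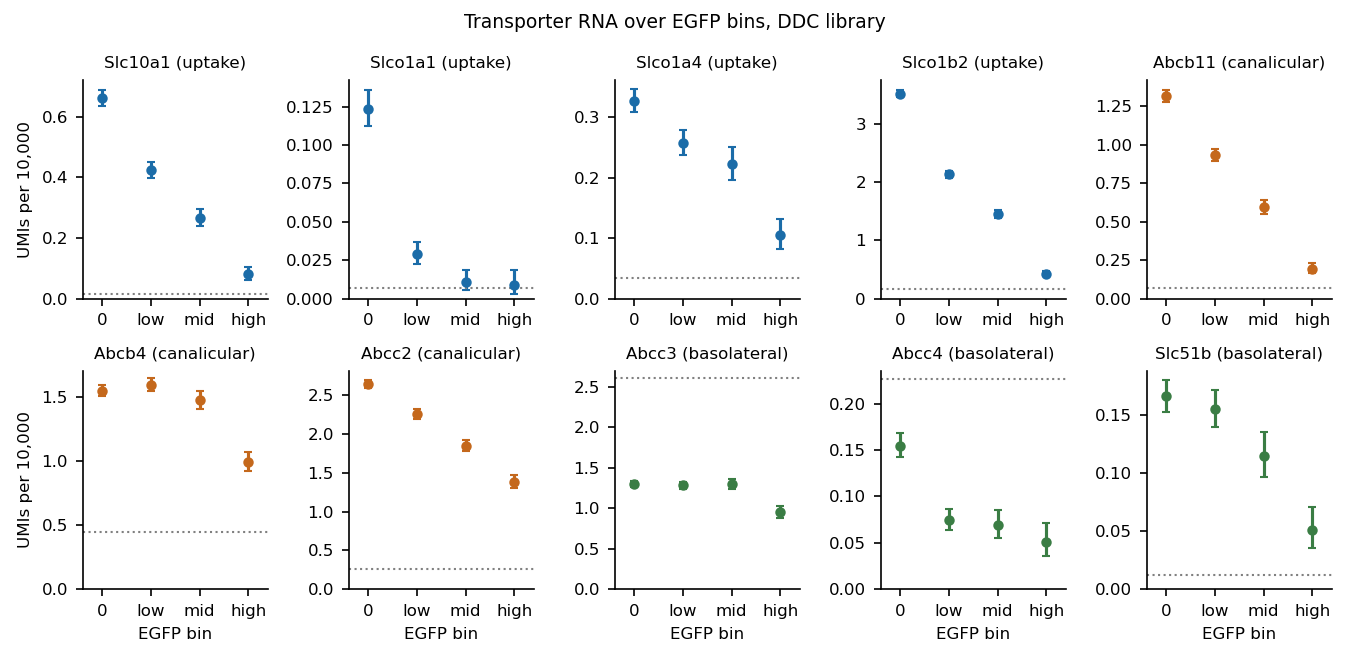
UMIs per 10,000 of each carrier over the 4 EGFP bins of the DDC library, from 0 to high, with exact 95% counting intervals. The dotted line is the level in macrophage-marker cells of the same library, which Slco1a1 approaches in the mid and high bins and which lies above Abcc3 and Abcc4 in every bin.

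In the high bin against the bin at 0, 7 of the 10 carriers were at least 2-fold lower, against 7.24% of 11660 genes, and 0 were higher, against 13% of them. The median log2 ratio was -1.67 over the carriers and 0.29 over all genes. In the mid bin against the bin at 0, 5 carriers were at least 2-fold lower, against 3.15% of genes, and 0 higher, against 3.03%. The 5 became 3 with bins over Alb-high cells only, and 3 without the filter on nonparenchymal markers. In the high bin against the low bin 6 were lower, against 4.2%, and 0 higher, against 8.5%. Hepatocyte markers summed to 274 per 10,000 in the high bin and 570 in the bin at 0, and progenitor and biliary markers to 209 and 20.7, with Spp1 the most abundant of them. All 8 pericentral markers were at least 2-fold lower in the high bin (median log2 ratio -2.73), as were 3 of 8 periportal markers (median -0.19). The part of these marker levels in the ratios was not tested. With bins drawn over Alb-high cells only, the high bin was still lower for Slc10a1 (log2 ratio -2.07, against -3.03 over all binned cells), Slco1b2 (-2.13, against -3.04), Abcb11 (-1.76, against -2.76) and Slco1a4 (-0.80, against -1.63).

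Lists of related genes are given here as log2 ratios of the high bin over the bin at 0, and their counts stand beside the same 7.24% of all genes lower and 13% higher. Of 21 other carriers tested, 7 were at least 2-fold lower and 2 higher, with Slco2b1, a carrier of steroid sulphates, at a log2 ratio of -4.02 and Slco3a1, a prostaglandin and anion carrier, at 3.14. Of 15 synthesis and conjugation genes tested, 9 were lower and 0 higher, with Cyp7a1, which starts the classic pathway from cholesterol, at -5.03. Of 15 receptors and regulators tested, 3 were lower and 2 higher, with Nr1i3, the constitutive androstane receptor, at -4.35 and Nr0b2, a repressor induced by FXR, at 0.659 UMIs per 10,000 in the high bin and 0.232 in the bin at 0. Of 12 genes for membrane scaffolds and canalicular trafficking, 0 were lower and 4 higher, among them Msn (1.79) and Ezr (1.76), which link membrane proteins to actin. Among 12 NRF2 targets, genes with the antioxidant core as their known control element, 7 were lower and 0 higher, with Gsta1 at -3.60.

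Single cells showed the same differences as the sums. After thinning each cell of at least 10000 UMIs to 10000, Slc10a1 was detected in 36.5%, 28.6%, 20.6% and 7.52% of cells over the 4 EGFP bins, against 1.70% of macrophage-marker cells. Shallower cells were left out, 294, 0, 31 and 11 over the bins and 75 macrophage-marker cells. Before thinning, the shares over all cells of the bins were 53.1%, 51.9%, 40.9% and 18.1%, against 3.29% of macrophage-marker cells. Abcb11 was detected in 65.4%, 52.1%, 43.2% and 18.8% of thinned cells, against 6.55% of macrophage-marker cells, and in 76.6%, 84.7%, 71.2% and 40.3% before thinning, against 9.86%. The unthinned order of the bin at 0 and the low bin went against the level, and no order is read from it. Abcc2 was still detected in 65.4% of thinned cells of the high bin, against 13.6% of macrophage-marker cells. Slco1a1 was detected in 3.47% of cells of the high bin before thinning, against 1.44% of macrophage-marker cells, and in 0 of 133 after it, against 0.485%.

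Plet1-positive cells, Alb-high cells with at least 2 Plet1 UMIs and at least 1 per 10,000, were lower in uptake carriers and Abcb11 than Plet1-negative cells, near level in Abcb4 and Abcc2 and higher in Abcc3. In the DDC and cMet library the positive cells had a median of 32752 UMIs and the negative cells 18441. With cells thinned to 10000 UMIs, Slc10a1 was detected in 42.6% of positive cells and 86.9% of negative cells, and Abcc3 in 74.4% and 57.2%. Before thinning, which left out 43 positive and 1610 negative cells as shallower, the shares were 62.8% and 79.5% for Slc10a1 and 88.8% and 63.7% for Abcc3. Macrophage markers summed to 1.33 per 10,000 in positive cells and 1.41 in negative cells, and progenitor and biliary markers to 21.4 and 4.47. Pericentral markers summed to 4.49 in positive cells and 13.5 in negative cells, and 5 of the 8 were at least 2-fold lower. The part of depth and of these markers in the ratios was not tested.

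Slc10a1 had 0.892 UMIs per 10,000 in Plet1-positive cells and 3.65 in Plet1-negative cells of the DDC and cMet library, 4.09-fold lower. Slco1a1 had 0.154 in positive cells and 1.04 in negative cells, 6.74-fold lower, and Slco1b2 had 3.67 and 5.69 in the same order, 1.55-fold lower. The Slco1a1 log2 ratio of -2.75 was -1.86 with cells weighted alike and -2.15 with cells thinned to 2000 UMIs. Slco1a4 had 0.397 in positive cells and 0.577 in negative cells, 1.45-fold lower. All 4 uptake carriers were therefore lower in the positive cells, by unequal amounts.

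Abcb11 had 0.511 UMIs per 10,000 in Plet1-positive cells and 1.35 in Plet1-negative cells, 2.64-fold lower. Abcc2 had 2.40 in both, with an interval of the log2 ratio from -0.07 to 0.06, and Abcb4 had 1.24 in positive cells and 1.06 in negative cells, 1.16-fold higher. The log2 ratios of both, -0.00 for Abcc2 and 0.22 for Abcb4, lay below the median of all genes, 0.27. Abcc3 had 1.51 in positive cells and 0.902 in negative cells, 1.67-fold higher. Abcc4 had 0.0739 in positive cells and 0.0334 in negative cells, 2.21-fold higher (1.67 to 2.88) from 68 and 304 UMIs. Slc51b had 0.170 in positive cells and 0.184 in negative cells, with an interval of the log2 ratio that held 0.

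At a 2-fold limit 3 of the 10 carriers were lower, against 3.63% of 12119 genes, and 1 was higher, against 8.8%. The Abcc4 ratio was under 2-fold when cells were weighted alike, thinned to 2000 UMIs or left without the deepest 5%. At a stricter limit of 4 Plet1 UMIs per 10,000, Slc10a1 was at a log2 ratio of -2.63, Slco1b2 at -1.40 and Abcc4 at 2.14. Among 15 receptors and regulators tested, S1pr2, a receptor for conjugated bile acids, was at 1.92 and Nr1i3 at -1.59. Among 12 scaffold genes, 2 were at least 2-fold higher, Ezr (2.35) and Cgn (1.01), and 0 lower.

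In the DDC library the same split gave 5 carriers at least 2-fold lower, against 2.89% of 11392 genes, and 0 higher, against 5.88%. Slc10a1 had 0.250 UMIs per 10,000 in positive cells and 1.34 in negative cells, 5.34-fold lower. Slco1b2 had 2.04 and 5.33 in the same order, 2.61-fold lower, and Slco1a4 had 0.230 and 0.478, 2.08-fold lower. Slco1a1 had 0.0202 in positive cells and 0.318 in negative cells, 15.8-fold lower. Abcb11, at 0.795 in positive cells and 2.02 in negative cells, was 2.54-fold lower, close to its 2.64-fold in the DDC and cMet library. Abcc3 was 1.26-fold higher, at 1.37 in positive cells and 1.09 in negative cells, and Abcc4 was level, at 0.110 and 0.117. Pericentral markers, 7 of 8 at least 2-fold lower, summed to 5.08 in positive cells and 19.2 in negative cells, and their part in these ratios was not tested. The Plet1 and EGFP splits of the DDC library share cells, so neither stands apart from the other.

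**Figure D3:**
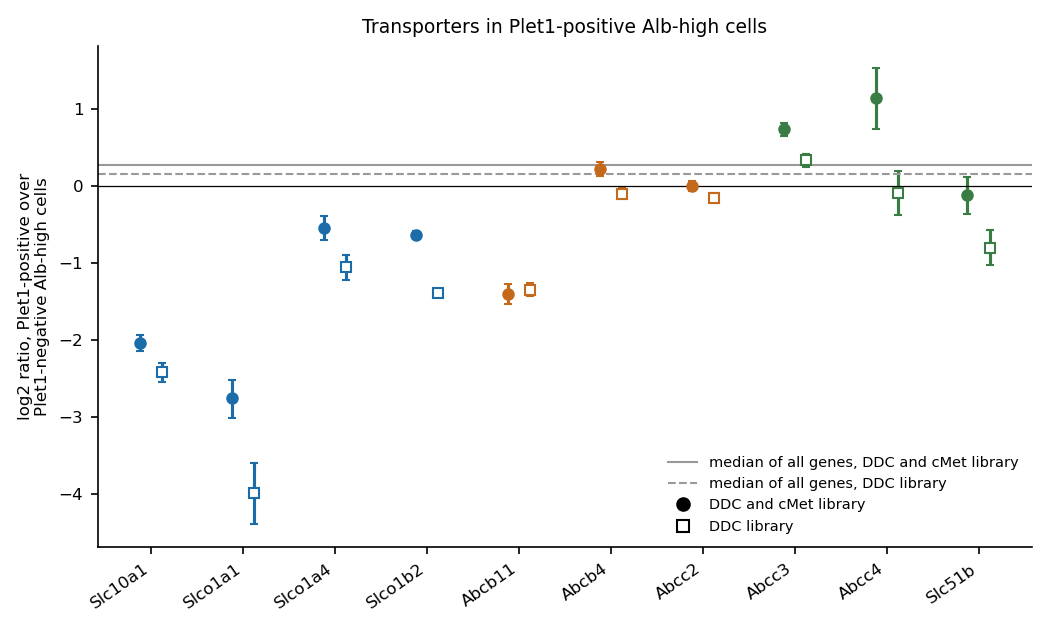
Log2 ratio of each carrier in Plet1-positive over Plet1-negative Alb-high cells, in the DDC and cMet library (filled circles) and the DDC library (open squares), with exact 95% counting intervals and the median of all genes as grey lines. Uptake carriers and Abcb11 lie below 0 in both libraries, and Abcc3 lies above 0 in both.

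Per-cell levels in cells of at least 10000 UMIs were shifted as a whole for Slc10a1. The median cell had 0.352 UMIs per 10,000 among Plet1-positive cells and 3.35 among Plet1-negative cells of the DDC and cMet library, and the 90th percentiles were 2.79 and 7.57. For Abcb11 the medians were 0.351 and 1.23 in the same order. For Abcc2 they were 2.09 and 2.11, so the whole distributions of Abcc2 lay close together. In the DDC library the median EGFP-high cell had 0 Slc10a1 UMIs, 0 Abcb11 UMIs and 1.10 Abcc2 UMIs per 10,000.

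**Figure D4:**
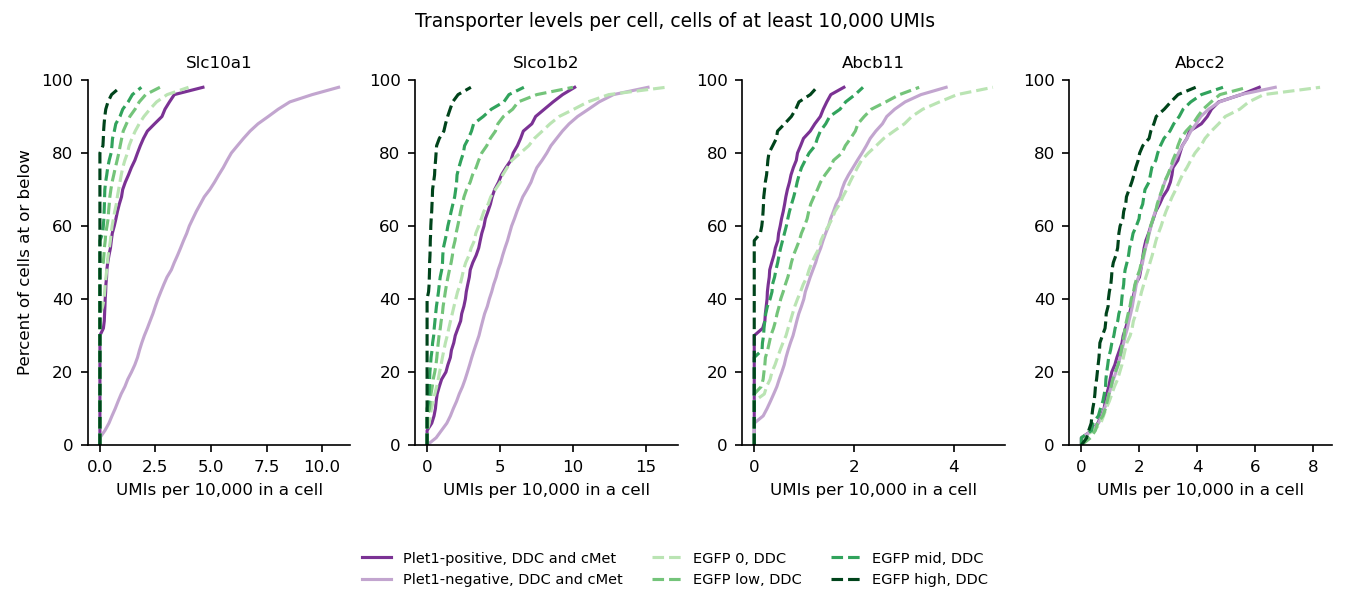
Percent of cells at or below a given level (UMIs per 10,000 in a cell) of 4 carriers, for Plet1-positive and Plet1-negative Alb-high cells of the DDC and cMet library (solid) and the 4 EGFP bins of the DDC library (dashed), in cells of at least 10000 UMIs, drawn up to the 98th percentile. Curves further left have lower levels; for Abcc2 the Plet1 curves overlap, and for Slc10a1 they stand apart.

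Alb-high cells of at least 10000 UMIs were next ordered by their own Slc10a1 level and divided into 4 equal bins, and the lowest bin was set against the highest. Slc10a1 itself chose these bins and is not compared, and in the DDC library it had 0 UMIs in the lowest bin. The second bin there had 213 Slc10a1 UMIs in 340 cells, so it held cells at 0 as well. The border between the lowest and second bins of that library thus divided cells of equal level and is not an order of Slc10a1. In the DDC and cMet library Abcb11 had 0.577, 1.07, 1.39 and 1.85 UMIs per 10,000 from the lowest to the highest bin, and Slco1a1 had 0.190, 0.397, 0.854 and 2.09. Abcc4 ran the other way, at 0.107, 0.0281, 0.0203 and 0.00697, and Abcc3 did so too, at 1.33, 0.998, 0.857 and 0.754. Abcb11 and Slco1a1 were the 2 carriers at least 2-fold lower in the lowest bin, against 3.25% of genes, and Abcc4 the 1 higher, against 12.4%. Nonparenchymal markers summed to 1.58 per 10,000 in the lowest bin and 1.54 in the highest, pericentral markers to 9.10 and 13.7, and periportal markers to 26.7 and 40.3. The median mitochondrial share of a cell's UMIs was 8.91%, 9.74%, 10.9% and 14.2% from the lowest to the highest bin. The part of these values in the ratios was not tested.

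In the DDC library Abcb11 had 0.673, 0.795, 1.34 and 2.11 UMIs per 10,000 over these bins, and the lowest bin was 3.13-fold lower than the highest. Slco1b2 (2.45-fold), Slco1a4 (2.83-fold), Slc51b (2.90-fold) and Slco1a1 (48.6-fold, on 9 UMIs in the lowest bin) were also lower there, against 3.54% of genes. Abcc4 was at 0.108 in the lowest bin and 0.0896 in the highest, with an interval of the log2 ratio that held 0. No carrier was at least 2-fold higher in the lowest bin, against 5.98% of genes. Pericentral markers summed to 4.66 per 10,000 in the lowest bin and 18.3 in the highest, and periportal markers to 21.5 and 21.2. The median mitochondrial share was 7.04%, 6.76%, 7.21% and 8.13% from the lowest to the highest bin, and the part of these values in the ratios was not tested.

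Slco1a1 RNA was held by few cells of the DDC library. There, 55 of 1653 Alb-high cells with at least 2 Slco1a1 UMIs (3.33%) held 453 of its 512 UMIs (88.5%), whereas in the DDC and cMet library 1353 of 4738 such cells (28.6%) held 93.3%. This limit of 2 UMIs was chosen after the values were seen. Of the 55 cells, 8 had EGFP (14.5%), against 38.1% of the cells without Slco1a1, and their median depth was 17926 UMIs, against 38150, with a median mitochondrial share of 13.4%, against 6.74%. In these 55 cells Slc10a1 had 2.42 UMIs per 10,000, against 0.551 in cells without Slco1a1, and Slco1b2 had 6.67, against 2.96. Abcc3 had 0.646 in the 55 cells and 1.28 in cells without Slco1a1, and Abcc4 had 3 UMIs in them. Carriers other than Slco1a1 that were at least 2-fold higher in the 55 cells were Slc10a1 and Slco1b2, against 3.54% of genes, and 2 were lower, Slc51b and Abcc4, against 18.1%. Slc51b had 14 UMIs in the 55 cells and a log2 ratio of -1.03, with an interval from -1.91 to -0.28. In the DDC and cMet library Slc10a1 had 4.62 in cells with Slco1a1 and 2.23 in cells without it, and Slco1b2 had 6.20 and 4.85. There Slc10a1 was the 1 other carrier at least 2-fold higher, against 1.95% of genes, and Abcc4 the 1 lower, against 4.2%. The median depth there was 33133 UMIs in cells with Slco1a1 and 11562 in cells without it, and the median mitochondrial share 12.6% and 8.02%. The part of depth and mitochondrial share in the ratios of either library was not tested.

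Sex and zone were examined because both are known to set some of these carriers. At least 2 Y-linked UMIs with 0 of Xist were found in 57.6% of Alb-high cells of the DDC and cMet library and 77.6% of those of the DDC library. That share moves with depth, since these cells had a median of 37434 UMIs in the DDC and cMet library, against 22998 in all its Alb-high cells, and 42942 against 37286 in the DDC library. Alb-high cells held 16246 Y-linked and 14 Xist UMIs in the DDC and cMet library and 8559 and 11 in the DDC library. No Alb-high cell had at least 2 Xist UMIs with 0 Y-linked UMIs, so no split by sex could be made. Of 12 genes with male-biased expression in mouse liver, Slco1a1 among them, 10 were at least 2-fold higher in the DDC and cMet library and 1 lower, against 5.57% and 11.9% of all genes. Of 6 female-biased genes tested, 4 were also higher there and 0 lower. In the EGFP-high bin 9 of 10 male-biased and 2 of 2 female-biased genes tested were lower than in the bin at 0 and 0 of either higher, against 7.24% of all genes lower.

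Zone was scored by pericentral against periportal marker genes, and Alb-high cells of each library were divided into 3 equal bins, periportal, middle and pericentral. Slco1b2, Slco1a4, Abcc2, Abcc4 and Slc51b were higher in the pericentral than in the periportal bin of both libraries. Slco1b2 had 7.67 UMIs per 10,000 in the pericentral bin and 3.77 in the periportal bin of the DDC and cMet library, 2.03-fold higher, and 5.38 and 1.61 in those of the DDC library, 3.35-fold higher. Abcc4 had 0.0783 and 0.0202 in the same order in the DDC and cMet library, 3.87-fold higher, and 0.180 and 0.0657 in the DDC library, 2.73-fold higher. Slco1a4 was 1.54-fold higher in the pericentral bin of the DDC and cMet library and 1.74-fold higher in that of the DDC library. Slc51b had 0.197 in the pericentral bin and 0.139 in the periportal bin of the DDC and cMet library, 1.41-fold higher, and 0.226 and 0.126 in those of the DDC library, 1.80-fold higher. Its highest level in the DDC and cMet library was in the middle bin, at 0.227. Abcc2 was 1.21-fold higher in the DDC and cMet library and 1.23-fold higher in the DDC library.

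Between the pericentral and periportal bins, Slc10a1 and Abcb11 differed in opposite directions in the libraries. Slc10a1 had 3.06 in the pericentral bin and 3.73 in the periportal bin of the DDC and cMet library (log2 ratio -0.29), and 0.904 and 0.444 in those of the DDC library (1.02). Abcb11 had 1.14 in the pericentral bin and 1.39 in the periportal bin of the DDC and cMet library (log2 ratio -0.28), and 1.74 and 0.881 in those of the DDC library (0.98). EGFP was also lower in the pericentral bin of the DDC library, 0.177 per 10,000 against 1.07 in the periportal bin, and its part in these ratios was not tested. Past the 2-fold limit, 2 carriers were higher in the pericentral bin of the DDC and cMet library, against 2.22% of genes, and 3 in that of the DDC library, against 2.34%. None was lower in either, against 2.43% of genes in the DDC and cMet library and 4.13% in the DDC library. Slco1a1, 1.63-fold higher in the pericentral bin of the DDC library, had a log2 ratio of -0.91 there when Alb-high cells were taken at 200 Alb UMIs per 10,000.

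**Figure D5:**
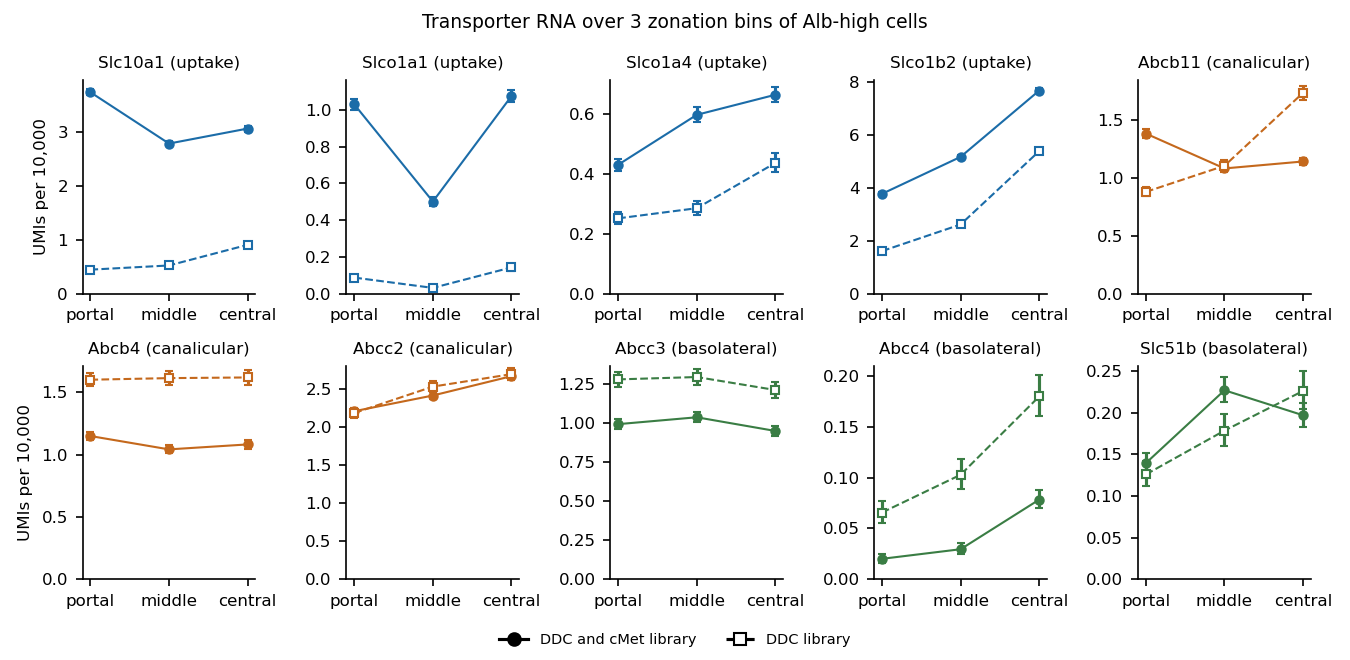
UMIs per 10,000 of each carrier in the periportal, middle and pericentral bins of Alb-high cells, in the DDC and cMet library (filled circles, solid lines) and the DDC library (open squares, dashed lines), with exact 95% counting intervals. Slco1b2, Slco1a4, Abcc2, Abcc4 and Slc51b are higher in the pericentral than in the periportal bin of both libraries. Slc51b is highest in the middle bin of the DDC and cMet library. Slc10a1 and Abcb11 are higher in the pericentral than in the periportal bin of the DDC library. In the DDC and cMet library they are lower there, with the middle bin lowest.

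Over 12 groups of cells (the 4 EGFP bins, 3 Plet1 groups of each library and the macrophage-marker cells of each library), some of which share cells and all of which share libraries, the genes most like each of 3 carriers were named by Pearson's r of log2(UMIs per 10,000 + 0.1) among 11547 genes. The genes closest to Slc10a1 were Hpd (r 0.99), Gm4756, Hal, Nlrp6 and Ces2a. Abcb11 was followed most closely by Gm8883, Ang, Ppp1r3b, Mbl2 and Cyp2c68 (r 0.99 for each), and Slc51b had an r of 0.96 with it. For Abcc4 they were Fth1 (0.95), the ferritin heavy chain, Wdr7, Cd164, Ctns and Tubgcp6. With the other carriers the r of Abcb11 was 0.93 for Slco1b2, 0.91 for Slco1a4, 0.89 for Abcc2 and 0.86 for Abcb4. It was 0.78 for Slc10a1, 0.49 for Slco1a1, -0.42 for Abcc4 and -0.75 for Abcc3. These are descriptions over 12 points, to which the macrophage-marker cells add the lowest levels of most carriers. For Abcc3 and Abcc4 those cells add the highest levels.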

How the data were processed

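The authors deposited 1 matrix of whole-number UMI counts per gene and barcode for each library, with barcode and gene lists (other, not numeric). Per the file headers, the count matrices were written by Cell Ranger 5.0.1, whereas version 6.0.1, Seurat 4.0.1 and the build mm10 stand in the submitters' processing notes. What chose the barcodes before deposit was not given in the sources used here. The libraries held 186997180 UMIs (DDC and cMet) and 104523363 UMIs (DDC).

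UMIs were summed over the cells of a group and divided by the group's total, with EGFP and tdTomato left out of totals. The sums of hepatocyte, of progenitor and biliary, and of macrophage markers kept the reporters in the total. Limits per cell and thinning also used all UMIs of a cell. Levels have exact Poisson intervals, ratios exact conditional binomial intervals and shares exact Clopper-Pearson intervals, all at 95%, and a count of 0 has a floor of 3 counts. Genes with at least 50 UMIs over both sides counted as tested, and at least 2-fold as called. Since each group is 1 pooled library, no test across samples was possible. The scripts were tested on simulated counts. No doublet caller was run: cells with nonparenchymal markers were left out (1083 and 216 cells that met the Alb limit, DDC and cMet and DDC), and an alternative dropped the 5% of cells with most UMIs. In all, 139 and 201 cells had between 80 and 120 Alb UMIs per 10,000, near the limit of 100. Zone bins left out cells with under 10 zone-marker UMIs (325 and 87).

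The carriers and all gene lists were chosen with earlier results of these data known. All 10 carriers are described, and up to 3 genes with the largest ratio are named from each other list. Gene models are from GENCODE M21 and promoters from RefSeq GRCm38.p6. Python 3.11.15 was used with numpy 2.4.6, scipy 1.17.1, pandas 2.3.3 and matplotlib 3.10.9.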

Additional observations from a re-analysis of the deposited data

Results flagged for a closer look

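Between the end bins of the zone order, 2 carriers differed in opposite directions in the libraries. The log2 ratio of the pericentral over the periportal bin of Alb-high cells was -0.287 for Slc10a1 in the DDC and cMet library and 1.024 in the DDC library. For Abcb11 it was -0.2763 in the DDC and cMet library and 0.9807 in the DDC library. The middle bin of the DDC and cMet library was the lowest for both carriers. With cells thinned to 2000 UMIs the Slc10a1 log2 ratio of the DDC library was 0.41. Abcb4, the phosphatidylcholine floppase, had a log2 ratio of Plet1-positive over Plet1-negative cells of 0.2188 in the DDC and cMet library and -0.09983 in the DDC library. With 1 pooled library per treatment, none of these differences between libraries was tested. The median log2 ratio of all genes for the Plet1 split was 0.27 in the DDC and cMet library and 0.15 in the DDC library.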

How the results depend on the processing

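Of 779 carrier ratios recomputed under the alternatives, 564 stayed within their counting interval, 213 moved beyond it and 2 were counted as reversed. In all, 37 moved by over 1.5 times, 19 of them with cells thinned to 2000 UMIs. The ratios counted as reversed were those of Slc51b with thinned cells, at 0.1894 for EGFP high over 0 (5 and 36 UMIs) and 1.048 for EGFP high over low (5 and 8 UMIs). Other ratios changed sign without being counted so. Among them was Slco1a1 between zones of the DDC library, from 0.71 to -0.91 at an Alb limit of 200 (84 and 181 UMIs). With thinned cells, Abcc4 went from -0.54 to 0.31 for EGFP high over low (3 and 8 UMIs). In the Plet1 split of the DDC library it went from -0.09 to 0.78 (23 and 9 UMIs). Thinning also left 4 of 7 carriers at least 2-fold lower in EGFP high over 0, and put 1 higher in EGFP high over low. In EGFP mid over 0, 3 were lower in place of 5, both without the nonparenchymal filter and in Alb-high cells only. The 1 carrier higher in Plet1-positive cells of the DDC and cMet library, Abcc4, became 0 with cells weighted alike, thinned or left without the deepest 5%. In the pericentral bin of that library 1 was higher in place of 2 at an Alb limit of 200, without the nonparenchymal filter, with cells weighted alike, with thinned cells and with totals without mitochondrial and the 50 most abundant genes. In the DDC library 5 were higher in place of 3 at an Alb limit of 50. With a minimum of 200 UMIs, genes at least 2-fold apart numbered 1020 lower between libraries (1574 at 50 UMIs), 907 higher for EGFP high over 0 (1517), 160 lower and 156 higher for mid over 0 (368 and 354) and 436 higher for high over low (947). For Plet1 they numbered 249 lower and 617 higher in the DDC and cMet library (440 and 1067) and 201 and 356 in the DDC library (329 and 670). For zones they numbered 149 lower and 131 higher in the DDC and cMet library (288 and 263) and 220 and 150 in the DDC library (464 and 263). The cause of these shifts was not tested. Leaving out barcodes shared by the libraries, an alternative chosen after seeing the data, moved 0 carrier ratios by over 1.5 times. Without mitochondrial and abundant genes in the totals, the median of all genes was -0.16 between libraries (-0.27 with them) and 0.13 for EGFP high over 0 (0.29). The tdTomato split was not run, since 2 UMIs left no group. No paired analysis was possible because each treatment is 1 pooled library.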

Other observations

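Slco3a1, a carrier outside the 10 genes, was higher in EGFP-high cells, at 1.37 UMIs per 10,000, against 0.156 in cells with 0 EGFP. It was also higher in Plet1-positive cells of the DDC and cMet library, at 0.0641, against 0.00286 in Plet1-negative cells, from 59 and 26 UMIs. Slco2b1 was lower in both, at 0.0185 in EGFP-high cells and 0.299 in cells with 0 EGFP, and at 0.160 in Plet1-positive cells and 0.466 in Plet1-negative cells. Gsta1, a glutathione transferase under NRF2 control, took opposite directions in the same pair of contrasts. It had 0.304 UMIs per 10,000 in EGFP-high cells and 3.68 in cells with 0 EGFP, whereas it had 3.93 in Plet1-positive cells and 1.75 in Plet1-negative cells of the DDC and cMet library. The difference between these contrasts was not tested.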
